A study of Mus musculus with 6 samples.

Results

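The genes described here build, move or supply cilia. They were chosen by name from the 16411 gene symbols listed with the single-cell counts: symbols that begin with Dnah, Dnai, Dnaaf, Dnal, Rsph, Cfap, Ift, Tekt, Spag or Bbs followed by a digit, c or i, together with Foxj1, Ccdc39, Ccdc40, Ccdc153 and Tmem212. The rule found 97 genes. No measured value entered it, but the members were chosen with earlier results of these data known. Of these, 62 carry the names of genes for parts of the moving axoneme (Dnah, Dnai, Dnal, Rsph, Cfap and Tekt genes, Ccdc39, Ccdc40, Spag6l, Spag16 and Spag17, with the antisense transcript Dnah2os among them), 22 code for transport along or into the cilium (14 Ift and 8 Bbs genes), and 5 for the assembly of dynein arms in the cytoplasm (4 Dnaaf genes and Spag1). Foxj1, Ccdc153 and Tmem212 were kept apart, as were 5 further Spag genes that were not counted as axonemal.

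The cells came from the hypothalamus of 11-week-old ob/ob males, which lack leptin and become obese and diabetic. Each had been injected with 3 µg of FGF1 R50E (a mutated fibroblast growth factor 1) into the cerebral ventricles and was killed on day 5. Each library was made from dissociated whole cells of 1 mouse with the 10x Genomics 3′ v2 kit, which counts transcripts by their 3′ end with unique molecular identifiers (UMIs). Of 6 labelled samples, all R50E, 4 had cells in the table (mice 3, 4, 30 and 34, 20151 cells), and there was no other treatment group among them, so the comparisons are between cell types within the same 4 mice. All of them carry the ob/ob genotype and the R50E injection, and how the genes behave in lean or uninjected mice is not addressed. UMI counts were summed per mouse and authors' cell type: 1530 ependymal cells (245 to 465 per mouse), 4490 tanycytes (693 to 1604), 5909 astrocytes (509 to 2498) and 4566 oligodendrocytes (a type without motile cilia, given for comparison). UMIs of these genes in oligodendrocytes can be free RNA or the cells' own expression, which cannot be told apart. Median UMIs per cell were 1131, 1143, 851 and 1136 in that order. The 4 libraries shared 194 cell barcodes. Levels are given as CPM, that is, UMIs of a gene for every 1000000 UMIs in the sum. Values listed for 4 mice are always in the order 3, 4, 30 and 34, and errors of means are SD over the 4 mice. Because counting was at the 3′ end, CPM are compared between cell types for the same gene or list, and not between genes.

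A motile cilium is a bundle of microtubule doublets around a central pair. Rows of dynein arms on the doublets make it bend, radial spokes and the central pair time the bending, and tektins and many Cfap proteins hold the doublets together. A primary cilium has the doublets without the arms and serves as an antenna for signals such as Hedgehog. Both kinds are built and supplied by intraflagellar transport (the Ift proteins), and the BBSome, made of Bbs proteins, ferries membrane cargo. Ependymal cells line the ventricle and carry tufts of beating cilia that move cerebrospinal fluid, tanycytes line the floor of the third ventricle and send a long process into the hypothalamus, and astrocytes as a rule carry a primary cilium.

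The labels were first set against marker genes. The ependymal list of 10 genes summed to 7364 ± 609 CPM in ependymal cells, 2010 ± 268 CPM in tanycytes and 385 ± 20.5 CPM in astrocytes. Of these markers, Enkur, Sntn, Fam183b, Dynlrb2 and Meig1 are themselves cilium genes, and the others are Rarres2, Mia, Tm4sf1, Pltp and Hdc. Rarres2, a chemoattractant, was at 1602 ± 259 CPM in ependymal cells and 323 ± 98.8 CPM in tanycytes, and Tm4sf1, a membrane protein, was at 774 ± 65.4 and 27.2 ± 2.53 CPM. Pltp was at 719 ± 97.3 and 114 ± 21.9 CPM, and Hdc, which makes histamine, at 426 ± 63.7 and 15.7 ± 4.57 CPM. Mia overlapped between the types, at 574 ± 109.8 CPM in ependymal cells (lowest 453) and 437 ± 93.7 CPM in tanycytes (highest 576). The tanycyte list of 10 stood at 2824 ± 355 CPM in tanycytes, against 246 ± 25.4 CPM in the ependymal sums, and with the tanycyte transcription factor Rax at 61.5 ± 12.1 and 1.34 ± 1.61 CPM. The astrocyte list of 10 summed to 14335 ± 358 CPM in astrocytes, against 2565 ± 166 CPM in ependymal cells and 4206 ± 389 CPM in tanycytes. Of its members only Aqp4 overlapped, at 427 ± 101 CPM in astrocytes (lowest 312) and 362 ± 98.5 CPM in ependymal cells (highest 477). In tanycytes Aqp4 was at 59.3 ± 19.7 CPM. Of choroid plexus genes, whose cells are ciliated too, 8 of the 10 listed were in the table and summed to 607 to 754 CPM in ependymal cells and 144 to 455 CPM in tanycytes. Calml4 made up most of the ependymal value at 501 ± 56.1 CPM, against 105 ± 20.2 CPM in tanycytes. Folr1 (49.0 against 0.669 CPM), Clic6 (75.5 against 11.0 CPM) and Otx2 (21.3 against 4.13 CPM) were higher in ependymal cells of every mouse, while Ttr was at 6.87 ± 10.0 CPM against 84.7 ± 131 CPM. Kl had 0 UMIs in ependymal cells and 5 in tanycytes, Enpp2 was at 28.2 against 22.7 CPM with overlapping ranges, and Aqp1 had no UMI in either type. The oligodendrocyte list of 7 summed to 1685 to 3240 CPM in ependymal cells, 1989 to 3520 CPM in tanycytes and 3024 to 5094 CPM in astrocytes, so UMIs of these genes were found in all 3 types.

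Axonemal genes were highest in ependymal cells, lower in tanycytes and lower still in astrocytes. The 62 axonemal genes summed to 9063, 9243, 8570 and 8623 CPM in ependymal cells (8875 ± 330), to 2818, 2380, 2277 and 2670 CPM in tanycytes (2536 ± 251) and to 584, 628, 658 and 522 CPM in astrocytes (598 ± 59.2). The ependymal sum was 3.22 to 3.88 times the tanycyte sum of the same mouse, and the 3 ranges did not overlap. In oligodendrocytes the same sum was 351 ± 44.96 CPM. Mouse 30, whose ependymal cells held 6475 CPM of 5 summed chemokines against 3.23 to 57.7 CPM in the other mice, did not stand apart in the axonemal sum.

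The transport genes followed the same order of cell types on a flatter slope. Their sum was 2264, 2128, 2067 and 2207 CPM in ependymal cells, 1230, 1062, 1004 and 1114 CPM in tanycytes and 623, 636, 598 and 596 CPM in astrocytes. Here too the 3 ranges did not overlap. Tanycytes held 28.6% ± 2.83 of the ependymal axonemal sum but 50.8% ± 2.47 of the transport sum (n = 4 mice), and the highest axonemal share of any mouse, 31.1%, lay below the lowest transport share, 48.6%. Against astrocytes, ependymal cells had 14.9 ± 1.48 times the axonemal sum and 3.53 ± 0.16 times the transport sum. Against oligodendrocytes the factors were 25.6 ± 3.25 and 4.66 ± 0.19.

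**Figure D1:**
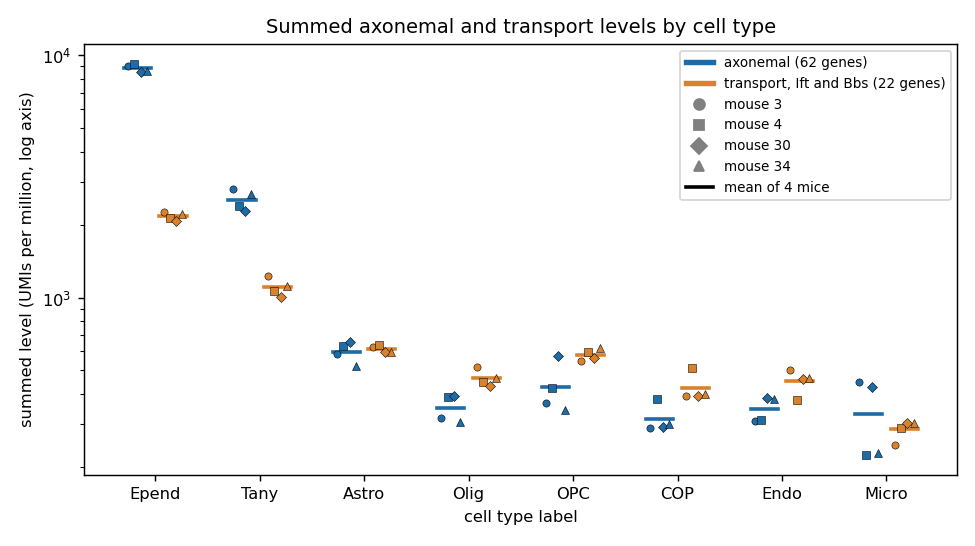
Summed CPM (log axis) of axonemal genes and transport genes in each cell type, with a symbol for each of the 4 mice and a bar at their mean. Axonemal sums fall from 8875 CPM in ependymal cells to 2536 CPM in tanycytes and 598 CPM in astrocytes, while transport sums fall from 2166 to 1102 and 613 CPM.

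The ratio of the axonemal to the transport sum puts this difference in a single value per mouse. It was 4.10 ± 0.19 in ependymal cells (3.91 to 4.34), 2.30 ± 0.067 in tanycytes (2.24 to 2.40) and 0.976 ± 0.095 in astrocytes. In oligodendrocytes, their precursors (OPC), committed precursors (COP) and endothelial cells its mean lay between 0.740 and 0.774. Microglia, with 34 or more cells per mouse, gave 1.18 ± 0.519. Ependymal cells, tanycytes and astrocytes did not overlap in this ratio. In oligodendrocytes, COP and endothelial cells it was below 1 in every mouse, and in OPC in all but mouse 30 (1.02).

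Single genes were compared with the edgeR quasi-likelihood test over all genes. Calls required a log2 fold change beyond 1 in size together with a Benjamini-Hochberg adjusted p below 0.05. The cell types were named by the authors, in a way not given in the sources used here and so perhaps from these same counts, and the calls describe the labelled types. Between ependymal cells and tanycytes, 51 of the 62 axonemal genes passed the filter on low counts, and 42 were called higher in ependymal cells, none lower. Of all 8781 genes tested, 13.1% were called higher, 6.73% lower and 19.8% either way. The median log2 fold change of the 51 was 1.86 (quartiles 1.36 and 2.36), against -0.03 over all genes. Of the 22 transport genes, 20 passed the filter and 7 were called higher, none lower, with a median of 0.93 (quartiles 0.60 and 1.195). Without the limit on the fold, 50 of the 51 axonemal and 17 of the 20 transport genes were higher at an adjusted p below 0.05, a limit that 46.3% of all genes passed in either direction.

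Between ependymal cells and astrocytes, 50 of 51 axonemal and 16 of 20 transport genes were called higher, where 17.6% of 8371 genes were (14.3% lower, 31.8% in either direction). The medians were 5.22 (quartiles 3.12 and 6.14) and 1.81 (1.34 and 2.06). Cfap58, with no UMI in astrocytes, was among the 51, and the median was the same with this gene set to the bound that 3 UMIs over the group give. Tanycytes were also higher than astrocytes: 36 of 44 axonemal and 9 of 20 transport genes were called, with medians of 3.34 and 0.95, where, of 10081 genes, 10.1% were higher by a call, 11.0% lower and 21.1% changed in either direction. None of these axonemal or transport genes was called lower in any of the 3 comparisons. The axonemal genes below the filter in the first comparison were Dnah14, Dnah8, Dnah2os, Tekt2, Tekt3, Tekt5, Cfap73, Cfap99, Rsph14, Rsph3a and Rsph3b.

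**Figure D2:**
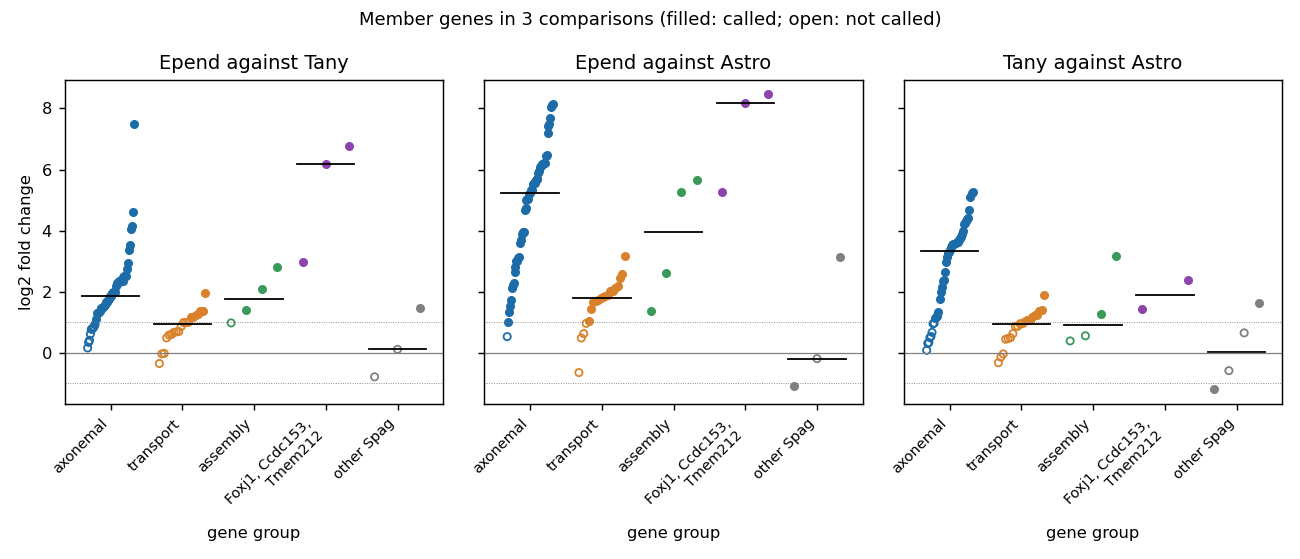
Log2 fold change of each tested member in the 3 comparisons of cell types. The groups are axonemal, transport and assembly genes, then Foxj1, Ccdc153 and Tmem212, then the other Spag genes. Filled symbols were called and open ones were not, black lines are medians, and dotted lines are the limits at 1 and -1. The axonemal medians are 1.86, 5.22 and 3.34, and the transport medians 0.93, 1.81 and 0.95.

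Foxj1, Ccdc153 and Tmem212 mark the motile program. Foxj1 is the transcription factor that switches it on, and was at 639, 751, 713 and 752 CPM in ependymal cells, 79.6, 78.3, 72.7 and 108 CPM in tanycytes and 17.7, 12.8, 24.02 and 14.99 CPM in astrocytes. Each mouse showed the same order and no ranges overlapped. The log2 fold change was 2.96 ± 0.10 (SE) between ependymal cells and tanycytes (edgeR adjusted p = 6.27e-27), and 2.37 ± 0.17 between tanycytes and astrocytes (adjusted p = 5.63e-15). Tanycytes held 11.9% ± 1.96 of the ependymal Foxj1 level.

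Ccdc153, a coiled-coil protein widely used to mark ependymal cells, was at 1368, 1259, 1162 and 1442 CPM in ependymal cells but 12.3, 12.5, 10.5 and 10.6 CPM in tanycytes and 4.08, 3.85, 4.003 and 4.498 CPM in astrocytes. The log2 fold change over tanycytes was 6.76 ± 0.13 (adjusted p = 6.50e-36). Tmem212, a transmembrane protein also used as an ependymal marker, was at 1488, 1068, 1257 and 1555 CPM and in tanycytes at 23.1, 6.81, 12.6 and 22.4 CPM, a log2 difference of 6.19 ± 0.13 (adjusted p = 9.13e-35). Mouse 4 was the lowest in both types for Tmem212. These genes were nearly confined to ependymal cells among the 3 types: tanycytes held 0.883% ± 0.106 and 1.16% ± 0.421 of the ependymal level, beside 0.593% and 0.475% in oligodendrocytes and the 28.6% found in tanycytes for the axonemal sum.

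The promoters of members are shown because Rfx factors and Foxj1 are the known regulators of such genes. Of the 97 members, 81 matched a RefSeq promoter window (GRCm38.p6, 250 bases before to 50 after the transcript start), 52 axonemal and 19 transport genes among them. The windows were searched on both strands for the X-box half-site GTTGCCA, which reads TGGCAAC on the other strand, a core of the sites that Rfx factors bind, and for the forkhead site GTAAACA. The half-site was in 9 of 59 axonemal windows (15.3%) and 3 of 19 transport windows (15.8%), against 1439 of all 32851 windows (4.38%). The forkhead site was in 3 axonemal windows (5.08%) and 0 transport windows, against 3.65% of all. Several windows belong to 1 gene, and a match of these letters is a description and not a bound site. Printed below are the 150 bases before the start, on the strand of the gene and with half-sites in capitals, for Ccdc153 (chr9:44240527-44240676, plus strand) and Tmem212 (chr3:27896369-27896518, minus strand), the genes nearly confined to ependymal cells, and Rsph9 (chr17:46144201-46144350, minus strand), which tanycytes shared, none of which holds the half-site, and then for genes that do: Cfap161 (chr7:83794840-83794989, minus strand), with 3 copies, Cfap44 (chr16:44394649-44394798, plus strand), with 2, Cfap58 (chr19:47937562-47937711, plus strand), Tekt1 (chr11:72361883-72362032, minus strand) and the transport gene Ift27 (chr15:78174082-78174231, minus strand). The choice of genes was made after their values were seen. Where a gene had several windows, the one with the most half-sites was printed. Tekt1 has a second window (chr11:72361247-72361546, minus strand), which holds 0 half-sites.
Ccdc153: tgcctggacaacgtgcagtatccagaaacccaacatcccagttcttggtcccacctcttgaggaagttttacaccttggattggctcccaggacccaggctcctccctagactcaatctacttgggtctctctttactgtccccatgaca
Tmem212: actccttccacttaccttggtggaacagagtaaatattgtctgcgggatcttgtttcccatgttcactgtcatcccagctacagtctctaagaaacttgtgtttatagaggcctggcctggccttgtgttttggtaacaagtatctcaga
Rsph9: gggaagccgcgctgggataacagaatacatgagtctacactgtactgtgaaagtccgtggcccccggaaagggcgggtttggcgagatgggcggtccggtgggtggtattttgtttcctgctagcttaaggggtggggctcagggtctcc
Cfap161: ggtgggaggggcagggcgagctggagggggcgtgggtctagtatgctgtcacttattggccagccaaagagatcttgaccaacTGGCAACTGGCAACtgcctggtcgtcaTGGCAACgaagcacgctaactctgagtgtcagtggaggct
Cfap44: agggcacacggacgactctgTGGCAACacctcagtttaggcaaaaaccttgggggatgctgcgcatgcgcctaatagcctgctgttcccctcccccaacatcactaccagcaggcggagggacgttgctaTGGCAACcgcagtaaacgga
Cfap58: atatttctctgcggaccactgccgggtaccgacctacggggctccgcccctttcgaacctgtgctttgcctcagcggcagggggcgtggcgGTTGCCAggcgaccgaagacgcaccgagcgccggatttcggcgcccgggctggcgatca
Tekt1: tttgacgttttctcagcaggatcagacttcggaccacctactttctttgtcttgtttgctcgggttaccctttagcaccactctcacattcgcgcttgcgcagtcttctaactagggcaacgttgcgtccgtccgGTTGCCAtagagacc
Ift27: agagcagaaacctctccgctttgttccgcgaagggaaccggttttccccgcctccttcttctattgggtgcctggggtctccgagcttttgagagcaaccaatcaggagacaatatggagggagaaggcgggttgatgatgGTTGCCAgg

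For ependymal cells over tanycytes, the log2 fold changes of the genes printed with the half-site were 1.97 ± 0.13 for Cfap161, 2.00 ± 0.13 for Cfap44, 2.48 ± 0.40 for Cfap58, 0.86 ± 0.12 for Tekt1 and 0.67 ± 0.12 for Ift27. Those of the genes printed without it were 6.76 ± 0.13 for Ccdc153, 6.19 ± 0.13 for Tmem212 and 0.62 ± 0.12 for Rsph9. As these genes were picked by their values, no comparison was made between them.

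The dynein heavy chains are the motors of the arms. Of 14, 12 were tested between ependymal cells and tanycytes and 10 were called higher, with a median log2 fold change of 2.32, and against astrocytes all 12 tested were called. Over all genes, 13.1% and 17.6% were called higher in these comparisons. Their sum in tanycytes was 19.4% ± 4.03 of the ependymal sum. Dnah5, an outer arm heavy chain, was at 205, 176, 198 and 176 CPM in ependymal cells and 19.7, 10.2, 10.5 and 16.8 CPM in tanycytes, without overlap, a log2 difference of 3.54 ± 0.17 (adjusted p = 3.30e-22). Dnah9 and Dnah11 are outer arm chains as well. Dnah9 was at 183, 214, 169 and 173 CPM against 51.6, 66.9, 34.8 and 40.3 CPM (1.86 ± 0.14, adjusted p = 1.02e-15), and Dnah11 at 100.2, 167, 129 and 106 CPM against 46.7, 37.4, 36.9 and 38.7 CPM (1.48 ± 0.16, adjusted p = 7.49e-11). Ependymal and tanycyte ranges were apart for each of these outer arm genes, and tanycytes held 7.56% ± 2.33, 25.9% ± 4.82 and 33.5% ± 10.5 of the ependymal level in that order.

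Inner arm heavy chains spread over a wider range. Dnah12 was at 343, 482, 403 and 326 CPM in ependymal cells, 35.9, 29.5, 37.9 and 33.1 CPM in tanycytes and 0.453, 5.14, 6.004 and 0 CPM in astrocytes, with log2 fold changes of 3.36 ± 0.12 and, for tanycytes over astrocytes, 4.41 ± 0.39. Dnah6 was at 234, 188, 264 and 238 CPM and 51.6, 44.2, 23.2 and 48.7 CPM (2.34 ± 0.15, adjusted p = 6.71e-18). Dnah3 had 135 UMIs in ependymal cells and 1 UMI in tanycytes, a ratio of levels of 336 whose 95% counting interval ran from 59.3 to 13368 (exact binomial). These 3 genes were higher in ependymal cells of every mouse. At the other end stood Dnah7a, at 105, 107, 73.8 and 72.2 CPM in ependymal cells and 73.7, 60.1, 37.9 and 71.2 CPM in tanycytes, which differed by 0.41 ± 0.16 and was not called, yet was called over astrocytes in tanycytes (3.27 ± 0.21). Dnah7b, named after its values were seen, was not called either (0.78 ± 0.16). Dnah7a, Dnah7b and Dnah7c are close copies among which reads may have been split, so their single values are uncertain. Dnah14, also named after its values were seen, was the exception in cell type: with 255 UMIs it was at 32.3, 49.2, 41.1 and 58.5 CPM in oligodendrocytes and at 1.62, 2.89, 2.11 and 8.42 CPM in ependymal cells, and at 3.27 CPM or below in every mouse of the other types shown.

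Intermediate and light chains complete the dynein arms. Their sum in tanycytes was 32.6% ± 3.54 of the ependymal sum. Dnali1, an inner arm light intermediate chain, was at 279.7, 303, 249 and 273 CPM in ependymal cells, 74.7, 61.3, 64.3 and 81.2 CPM in tanycytes and 3.63, 12.8, 10.01 and 2.499 CPM in astrocytes, with a log2 difference of 1.85 ± 0.11 over tanycytes (adjusted p = 3.98e-18). Dnaic2 was at 118, 211, 135 and 168 CPM and 33.9, 36.3, 33.7 and 40.9 CPM (1.98 ± 0.15). Dnal1 lay close to the limit of a call at 1.09 ± 0.14 (adjusted p = 1.46e-08), and at 0.995 without mouse 30 it was no longer called. For all 3 the ependymal level exceeded the tanycyte level in each mouse.

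Radial spokes pass signals from the central pair to the arms. Rsph1, a spoke head protein, was at 758, 716, 620.1 and 656 CPM in ependymal cells, 139, 125, 120.1 and 120.5 CPM in tanycytes and 4.99, 15.4, 22.01 and 5.498 CPM in astrocytes. The ranges were far apart, with log2 differences of 2.36 ± 0.09 (adjusted p = 9.68e-25) over tanycytes and 3.88 ± 0.20 between tanycytes and astrocytes. Rsph4a, also of the spoke head, was at 212, 225, 219 and 180.4 CPM and 46.2, 35.2, 29.5 and 37.5 CPM (2.35 ± 0.14), and Rsph10b at 162, 159, 143 and 144 CPM and 58.5, 45.4, 62.1 and 62.7 CPM (1.30 ± 0.14). Rsph9, a spoke head protein as well, was at 257, 156, 217 and 207 CPM in ependymal cells, 133, 137, 118 and 134 CPM in tanycytes and 62.1, 73.2, 64.04 and 70.5 CPM in astrocytes and was not called (0.62 ± 0.12, adjusted p = 2.07e-05). Thus 3 of the 4 tested spoke genes were called over tanycytes, where 13.1% of all genes were called higher. Tanycytes held 18.4% ± 0.793 of the ependymal level of Rsph1 and 64.7% ± 16.5 of that of Rsph9. Rsph3a, Rsph3b and Rsph14 did not pass the filter.

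The central pair Spag genes had the lowest share in tanycytes of the axonemal groups summed here, with 12.7% ± 2.63 of the ependymal sum. Spag6l was at 162, 237, 217 and 178 CPM in ependymal cells and 27.03, 40.8, 30.5 and 31.4 CPM in tanycytes (2.51 ± 0.14, adjusted p = 1.46e-19). Spag16 was at 109.9, 185, 114 and 178 CPM and 28.5, 31.8, 18.96 and 29.7 CPM (2.30 ± 0.16) and was highest in ependymal cells of mouse 4. Spag17, named after its values were seen, was at 160.1, 271, 229.9 and 210.5 CPM and 14.7, 12.5, 6.32 and 8.404 CPM (4.16 ± 0.18). None of these genes overlapped between the types. Ccdc39 and Ccdc40 form the ruler that spaces the arms along the doublet. Ccdc40 was called, at 123, 124, 109.7 and 117 CPM against 36.9, 37.4, 29.5 and 49.3 CPM (1.51 ± 0.15, adjusted p = 2.83e-11), while its partner Ccdc39 just missed, at 192, 228, 243 and 183 CPM against 113, 72.6, 112 and 107 CPM (0.93 ± 0.12, adjusted p = 1.34e-08). Without mouse 3 (1.02) and without mouse 34 (1.04) Ccdc39 passed the fold limit too. The difference between these partners was not tested.

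Tektins form filaments in the wall of the doublets. Tekt1 was at 231, 139, 156 and 184 CPM in ependymal cells, 121, 74.9, 87.4 and 89.1 CPM in tanycytes and 23.1, 16.7, 24.02 and 20.99 CPM in astrocytes, a log2 difference of 0.86 ± 0.12 over tanycytes that passed the p limit (3.47e-08) and not the fold limit. Tekt4, named after its values were seen, was at 173, 113, 114 and 118 CPM, 17.7, 9.07, 17.9 and 18.5 CPM and 16.8, 12.8, 14.01 and 15.5 CPM in these types, in the same order. It was called in ependymal cells over tanycytes (2.93 ± 0.18) and not called between tanycytes and astrocytes, whose ranges overlapped (0.09 ± 0.23). Tekt2, Tekt3 and Tekt5 had 30, 8 and 4 UMIs in ependymal cells and were not tested.

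Of 25 Cfap genes, 23 were tested between ependymal cells and tanycytes and 20 were called higher (median 1.75), and 22 of 23 were called over astrocytes. The shares of all genes called higher were 13.1% and 17.6% in that order. Cfap54, a central pair protein, was at 333, 407, 348 and 374 CPM in ependymal cells and 68.3, 44.2, 57.9 and 64.4 CPM in tanycytes (2.50 ± 0.12). Cfap45, a protein inside the doublets, was at 257, 225, 314 and 253 CPM and 115, 97.6, 62.1 and 100.3 CPM (1.37 ± 0.13), and Cfap77 at 121, 173, 149.8 and 174 CPM and 8.36, 7.94, 8.43 and 8.96 CPM (4.05 ± 0.19). No ranges overlapped for these genes. Cfap43 and Cfap44, which tether inner arms to the doublet, were called with log2 differences of 1.35 ± 0.12 and 2.00 ± 0.13, as was Cfap100 with 1.53 ± 0.13. The genes Cfap206, Cfap61, Cfap57, Cfap74, Cfap69, Cfap161, Cfap46, Cfap70, Cfap52 and Cfap53 were each called over tanycytes and, in tanycytes, over astrocytes, with differences between ependymal cells and tanycytes from 1.32 (Cfap69) to 2.50 (Cfap57). Of the tanycyte calls over astrocytes, that of Cfap74 was lost without mouse 34 (0.96).

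Cfap126, also known as Flattop and needed to place basal bodies, was measured in tanycytes well above the level in astrocytes. It was at 623, 468, 489 and 536 CPM in ependymal cells, 312, 261, 253 and 304 CPM in tanycytes and 15.9, 28.3, 34.02 and 11.00 CPM in astrocytes. Ependymal cells were higher in each mouse without overlap, but the log2 difference of 0.82 ± 0.09 (adjusted p = 2.13e-10) stayed under the fold limit, whereas tanycytes exceeded astrocytes by 3.98 ± 0.16 (adjusted p = 1.09e-21). Tanycytes held 53.6% ± 3.17 of the ependymal level, and oligodendrocytes 1.22%. Cfap36, whose protein binds an Arl GTPase of the cilium, was at 209, 185, 139 and 158 CPM in ependymal cells, 121, 134, 144 and 119 CPM in tanycytes and 81.1, 73.2, 108 and 64.98 CPM in astrocytes. It was not called over tanycytes (0.35 ± 0.12) and lay just past the limit over astrocytes (1.02 ± 0.15), a call lost without mouse 3 (0.92), mouse 4 (0.99) or mouse 34 (0.96). Cfap20, named after its values were seen, was called over tanycytes (2.00 ± 0.13) and did not differ by a call between tanycytes and astrocytes (0.34 ± 0.16).

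The share that tanycytes hold of the ependymal level thus varied between genes. Over the 51 tested axonemal genes it ran from 0.305% (Dnah3) to 90.6% (Cfap97, named after its values were seen), with quartiles of 17.2%, 25.6% and 37.0%. It was below 10% for 6 genes, between 10% and 50% for 37 and above 50% for 8. Astrocytes held a median of 2.82% and oligodendrocytes of 1.31%, with 38 and 47 of the 51 genes below 10%. Over the 20 tested transport genes the tanycyte share ran from 24.0% (Ift88) to 127% (Bbs2) with a median of 51.7%, and the medians in astrocytes and oligodendrocytes were 27.3% and 18.9%. The order by tanycyte share, from Dnah3 over Dnah12 and Rsph1 to Cfap126 and Cfap97, describes genes whose SD over mice was often several percentage points, so close neighbours in that order are not told apart.

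**Figure D3:**
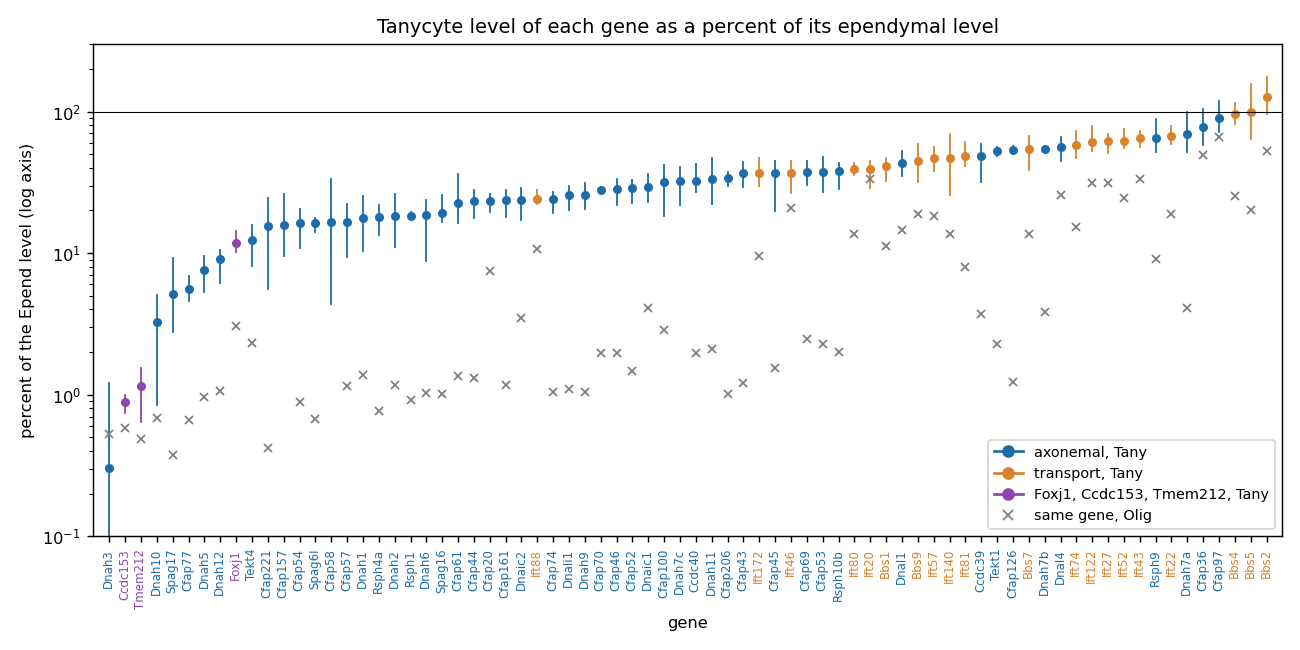
Level of single genes in tanycytes as a percent of the ependymal level (log axis, clipped at 0.1%). Dots are means over 4 mice, lines run from the lowest to the highest mouse, and grey crosses are oligodendrocytes, with genes at 0 there not drawn. In tanycytes Ccdc153 lies at 0.883%, Rsph1 at 18.4% and Cfap126 at 53.6%.

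Ratios of genes to Ccdc153 within a cell type are given next, with 95% intervals that cover counting error only. In ependymal cells there were 0.404 Cfap126 UMIs for each Ccdc153 UMI (0.378 to 0.432), in oligodendrocytes 0.935 (0.544 to 1.60), in astrocytes 4.17 (2.63 to 6.90) and in tanycytes 25.4 (19.8 to 33.0). For Rsph1 the values were 0.513 (0.482 to 0.546) in ependymal cells, 1.03 (0.610 to 1.75) in oligodendrocytes, 1.96 (1.16 to 3.39) in astrocytes and 11.1 (8.61 to 14.5) in tanycytes. For both genes the tanycyte interval lay above the other 3, and the oligodendrocyte and astrocyte intervals lay above the ependymal one. Not every gene kept this order. For Foxj1 the tanycyte value of 7.58 (5.85 to 9.98) overlapped oligodendrocytes at 4.00 (2.68 to 6.14) and astrocytes at 3.96 (2.48 to 6.55). For Dnah12 tanycytes lay highest at 2.98 (2.24 to 4.02), but the astrocyte interval, 0.135 to 0.805, covered the ependymal one, 0.257 to 0.299. Tmem212 was closer between the types, at 1.05 (0.997 to 1.10) in ependymal cells and 1.62 (1.17 to 2.24) in tanycytes, and for Sntn, a tip protein, the intervals overlapped, at 0.150 (0.136 to 0.166) and 0.0615 (0.0163 to 0.165). These ratios pool the 4 mice and rest on 3032 Ccdc153 UMIs in ependymal cells, 65 in tanycytes, 23 in astrocytes and 31 in oligodendrocytes. What part free RNA had in them was not tested.

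To see how the axonemal UMIs fell over single cells, each cell was thinned to 500 UMIs. An ependymal cell then held 4.37 ± 0.20 axonemal UMIs on average, a tanycyte 1.28 ± 0.12, an astrocyte 0.30 ± 0.04 and an oligodendrocyte 0.17 ± 0.02 (mean of mice). At least 1 axonemal UMI was found in 98.6% ± 0.57 of ependymal cells, 69.0% ± 2.65 of tanycytes, 24.8% ± 2.32 of astrocytes and 15.3% ± 1.58 of oligodendrocytes. Without thinning the shares were 99.9%, 89.0%, 39.9% and 30.3%. At least 3 axonemal UMIs were found in 78.9% ± 1.06 of ependymal cells and 15.5% ± 2.96 of tanycytes, and in 0.579% of astrocytes and 0.233% of oligodendrocytes. The variance over cells was 1.18 ± 0.16 times the mean in ependymal cells, 1.19 ± 0.07 in tanycytes, 1.10 ± 0.03 in astrocytes and 1.11 ± 0.11 in oligodendrocytes.

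**Figure D4:**
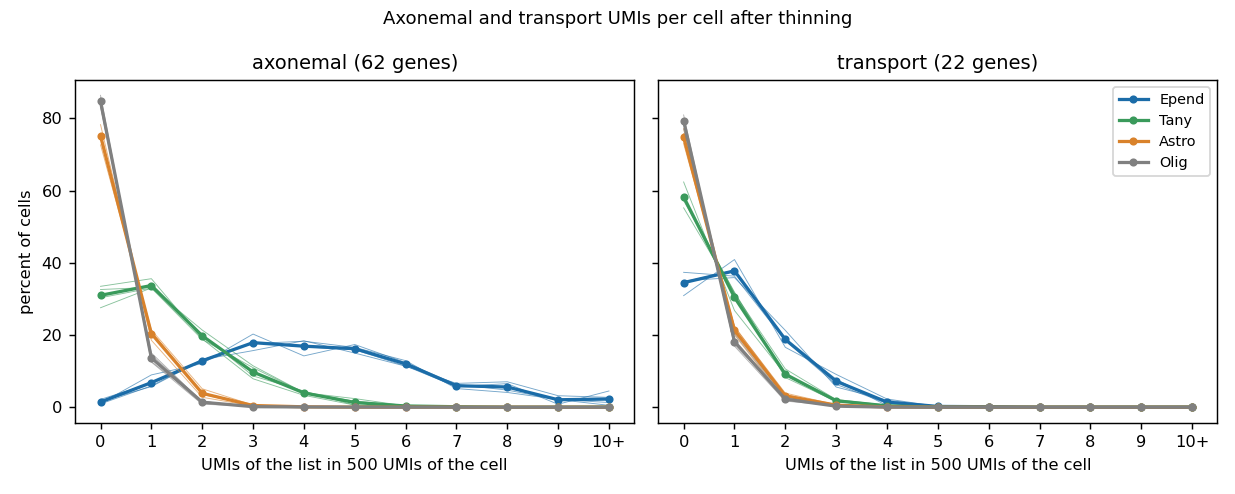
Percent of cells by number of axonemal UMIs (left) and transport UMIs (right) after thinning each cell to 500 UMIs (the last bin holds 10 or more), for ependymal cells, tanycytes, astrocytes and oligodendrocytes; thick lines are means of the 4 mice and thin lines single mice. Axonemal means are 4.37 UMIs per ependymal cell, 1.28 per tanycyte, 0.30 per astrocyte and 0.17 per oligodendrocyte.

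Of the tanycytes, 39.4%, 34.2%, 30.9% and 36.7% in mice 3, 4, 30 and 34 held at least 2 axonemal UMIs, and those cells together held 50, 13, 9 and 40 UMIs of Ccdc153 and Tmem212. These were 112 of the 170 tanycyte UMIs of both genes (65.9%), in cells with 36.7% of all tanycyte UMIs. By the same cutoff, oligodendrocytes had 12 of 57 UMIs of both genes (21.1%) in cells with 1.65% of their UMIs. Astrocytes had 2 of 43 (4.65%) in cells with 4.04%. An excess was thus seen in oligodendrocytes as well, but there it rests on few UMIs: 1, 7, 1 and 3 in mice 3, 4, 30 and 34. Median doublet scores of these oligodendrocytes were 0.0526, 0.113, 0.0548 and 0.0636, against 0.0474, 0.0566, 0.0332 and 0.0526 for all oligodendrocytes. For tanycytes they were 0.0569, 0.0704, 0.0584 and 0.0619, against 0.0554, 0.0679, 0.0584 and 0.0586. What part doublets had in either excess was not tested. For single genes, after thinning, Ccdc153 had a UMI in 44.3% ± 2.74 of ependymal cells, 0.51% ± 0.25 of tanycytes and 0.28% ± 0.19 of oligodendrocytes. Cfap126 had one in 25.2%, 13.6% and 0.21% of these cells, Foxj1 in 27.3%, 4.15% and 0.78%, and Rsph1 in 28.1%, 6.32% and 0.34%. For Ift20, of the transport genes, the shares were 14.4%, 5.93% and 6.02%, at mean levels of 341, 135 and 115 CPM. A transport UMI of any gene was found in 65.5% ± 2.67 of ependymal cells, 41.7% ± 3.02 of tanycytes, 25.1% ± 1.93 of astrocytes and 20.7% ± 1.65 of oligodendrocytes.

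Among the 14 Ift genes, all tested, 5 were called higher in ependymal cells than in tanycytes, and all 14 were higher at an adjusted p below 0.05 without the fold limit (median 0.99). Over all genes 13.1% were called higher, and 46.3% passed the p limit in either direction. Ift88, a core protein of the B complex that carries cargo toward the tip, was at 112, 118, 129 and 107 CPM in ependymal cells, 26.1, 27.2, 28.4 and 29.7 CPM in tanycytes and 10.9, 11.6, 16.01 and 10.5 CPM in astrocytes. Its log2 difference of 1.95 ± 0.16 over tanycytes (adjusted p = 3.69e-14) was the largest of the transport genes tested. Ift20, which also works at the Golgi, was at 361, 326, 321 and 355 CPM, 160.2, 137, 92.7 and 151 CPM and 73.4, 73.2, 72.05 and 70.5 CPM in the same order (1.24 ± 0.11 over tanycytes). Ift172, Ift46 and Ift80, B complex proteins, were called as well, with differences of 1.38 ± 0.17, 1.36 ± 0.15 and 1.27 ± 0.14, and Ift46 fell to 0.94 and lost its call when the sums were thinned to 1 depth. Ependymal ranges lay above tanycyte ranges for Ift88 and Ift20.

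Other Ift genes stayed under the fold limit over tanycytes. Ift81 (0.99 ± 0.13) and Ift74 (0.70 ± 0.13), a pair that binds tubulin, and Ift52 (0.60 ± 0.18) were called in tanycytes over astrocytes, as were Ift22 and Ift43. Ift81 gained a call over tanycytes without mouse 4 (1.10) and lost that of tanycytes over astrocytes without mouse 3 (0.99) or mouse 30 (0.999). Ift22 was at 228, 228, 213 and 238 CPM in ependymal cells, 180.4, 135, 137 and 152 CPM in tanycytes and 58.02, 60.4, 60.04 and 56.98 CPM in astrocytes, and Ift43, of the A complex that returns cargo, at 276, 170.4, 181 and 259.8 CPM, 174, 124, 121 and 146 CPM and 43.97, 32.1, 46.03 and 35.5 CPM in that order. Ift43 had the largest tanycyte difference over astrocytes of the transport genes tested (1.89 ± 0.12). Ift27, a small GTPase that links transport to the BBSome, behaved otherwise: it was at 226, 115, 139 and 172 CPM in ependymal cells, 115, 80.5, 93.7 and 103 CPM in tanycytes and 112, 82.2, 82.1 and 113 CPM in astrocytes, with differences of 0.67 ± 0.12 over tanycytes, 0.63 ± 0.14 over astrocytes and -0.03 ± 0.11 between tanycytes and astrocytes, none of them called. Astrocyte levels of Ift27 overlapped those of tanycytes.

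Of the 8 Bbs genes, 6 were tested and 2 called over tanycytes, where 13.1% of all genes were called higher. Bbs1 was at 51.7, 95.3, 63.3 and 56.5 CPM in ependymal cells, 22.1, 30.6, 29.5 and 25.2 CPM in tanycytes and 14.5, 26.98, 22.01 and 15.5 CPM in astrocytes (1.18 ± 0.18, adjusted p = 5.99e-07), and Bbs9 at 40.4, 34.6, 23.2 and 22.9 CPM, 12.8, 14.7, 13.7 and 10.6 CPM and 4.53, 6.42, 2.001 and 4.998 CPM in that order (1.17 ± 0.26, adjusted p = 2.10e-04). The Bbs9 call was lost without mouse 3, at 0.94. Bbs4 and Bbs5, subunits of the same BBSome, were not called between ependymal cells and tanycytes (-0.03 ± 0.20 and -0.02 ± 0.27) and called in tanycytes over astrocytes (1.07 ± 0.18 and 1.06 ± 0.25). The latter calls were lost for Bbs4 without mouse 34 (0.94) and for Bbs5 without mouse 3 (0.69) or mouse 4 (0.99). Bbs2, named after its values were seen, was at 27.5, 20.2, 12.7 and 21.7 CPM in ependymal cells, 26.5, 21.6, 22.1 and 28.6 CPM in tanycytes and 36.7, 35.98, 24.02 and 27.5 CPM in astrocytes, with overlapping ranges and differences that were not called (-0.35 ± 0.25 and -0.64 ± 0.23). The summed Bbs level in tanycytes was 63.8% ± 3.81 of the ependymal sum, against 49.3% ± 2.49 for the Ift genes. Bbs10 and Bbs12, whose proteins help assemble the BBSome, had 15 and 23 UMIs in ependymal cells and were not tested.

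Dynein arms are put together in the cytoplasm before they enter the cilium. Of the 5 genes of this step, 4 were tested, 3 were called over tanycytes and 4 over astrocytes. Over all genes, 13.1% and 17.6% were called higher in that order. Dnaaf3 was at 74.4, 92.4, 63.3 and 63.7 CPM in ependymal cells and 17.7, 13.6, 18.96 and 13.4 CPM in tanycytes (2.09 ± 0.20, adjusted p = 2.67e-12), and Spag1 at 56.6, 60.6, 54.8 and 45.7 CPM and 24.6, 22.7, 23.2 and 29.1 CPM, just under the fold limit (0.98 ± 0.19, and called at 1.19 without mouse 34). Both were higher in ependymal cells of each mouse. Of the further Spag genes, whose shared name refers to sperm and which were not counted as axonemal, Spag8 was called over tanycytes (125, 133, 94.9 and 136 CPM against 39.8, 38.6, 44.2 and 43.7 CPM, 1.47 ± 0.15). Spag9, a scaffold of JNK signalling, was not called between ependymal cells and tanycytes (0.12 ± 0.13) and was the only one of the 81 members tested that was called lower in ependymal cells than in astrocytes (134, 127, 122 and 106 CPM against 256, 233, 220.1 and 232 CPM, -1.07 ± 0.13). That call was lost with library totals in place of TMM (-0.95) and without mouse 34 (-0.99). Spag9 was lower in tanycytes than in astrocytes too (-1.18 ± 0.10).

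Over all 8 cell types with enough cells in each mouse, the highest mean level was in ependymal cells for 56 of 62 axonemal genes, 20 of 22 transport genes, 5 of 5 assembly genes and for Foxj1, Ccdc153 and Tmem212. Dnah2os, an antisense transcript, had no UMI in any of them. The exceptions among transport genes were highest in astrocytes and in OPC, and those among axonemal genes in OPC (3 genes) and oligodendrocytes (2 genes). These counts include genes with few UMIs, for which the highest type can rest on a handful of molecules.

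The rest of the ciliary machinery was taken from lists of other genes. Of 41 further axoneme genes, 32 were called higher in ependymal cells than in tanycytes, where 13.1% of all genes were, with a median log2 fold change of 1.54. Sntn, which caps the tips of motile cilia, was at 123, 202, 274 and 215 CPM in ependymal cells and 0.492, 1.13, 1.05 and 0.5603 CPM in tanycytes (455 against 4 UMIs, 7.75 ± 0.26), and Tctex1d4, of the Tctex family of dynein light chains, differed by 6.67 ± 0.23. The smallest differences were those of Tubb3, a neuronal tubulin (-0.60 ± 0.30), and Nme5 (0.46 ± 0.11). Of 9 tested genes for docking and assembly of the arms, 7 were called, against the same 13.1%. Armc4 (3.25 ± 0.24) and Zmynd10 (1.82 ± 0.17) led, and Ttc25 (0.58 ± 0.17) and Ccdc114 (0.84 ± 0.16) came last.

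Basal body genes, used to multiply centrioles before many cilia can form, were mixed. Of 12 tested, 5 were called higher than in tanycytes, where 13.1% of all genes were. Ccdc78 differed by 5.10 ± 0.26 and Cetn4 by 1.83 ± 0.11, while Cetn2 (0.54 ± 0.09) and Cep63 (0.60 ± 0.21) were not called. Transition zone genes, which form the gate at the base, were called in 8 of 22 cases against the same 13.1%, Tmem231 among them (2.12 ± 0.26), while Rpgrip1 (0.08 ± 0.20) and Ahi1 (-0.53 ± 0.12) were not called. Other transport genes were called in 11 of 24 cases (13.1% over all genes), with Ttc26 (2.19 ± 0.26) and Traf3ip1 (1.67 ± 0.26) largest and Mkks (-0.29 ± 0.20) and Hspb11 (-0.30 ± 0.16) smallest.

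Transcription factors of the ciliary program fell into separate patterns. Myb, which acts early in multiciliated cells, was at 160.1, 133, 114 and 173 CPM in ependymal cells and 2.95, 3.403, 3.16 and 2.24 CPM in tanycytes, a log2 difference of 5.60 ± 0.23 (adjusted p = 3.70e-24). Trp73, the p73 factor that drives multiciliated cells, was at 45.3, 69.3, 56.9 and 50.5 CPM and 0.492, 1.13, 1.05 and 1.12 CPM (5.62 ± 0.36, adjusted p = 2.11e-17). Both lay far apart between the types in every mouse. Rfx2 was called too (1.37 ± 0.19, but 0.82 and not called in thinned sums). Rfx3 was at 134, 141, 146 and 152 CPM in ependymal cells, 147, 118, 129 and 133 CPM in tanycytes and 60.7, 51.4, 50.03 and 81.5 CPM in astrocytes, not called between the first pair (0.02 ± 0.12) and called over astrocytes (1.06 ± 0.15, but 0.98 without mouse 30). Rfx4 was lower in ependymal cells than in astrocytes (-1.21 ± 0.18) and lower in tanycytes than in astrocytes (-1.78 ± 0.13). Foxj2 (-0.28 ± 0.29), Foxj3 (0.11 ± 0.23), Rfx7 (-0.08 ± 0.23), E2f4 (0.31 ± 0.36) and E2f5 (-0.16 ± 0.27) were not called over tanycytes, so 3 of the 10 tested were, where 13.1% of all genes were called higher.

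Genes for signalling at the primary cilium were a further list. Of 10 tested between ependymal cells and tanycytes, 1 was called higher and 1 lower, where 13.1% and 6.73% of all genes were. Arl13b, a GTPase of the ciliary membrane, was higher in ependymal cells (97.01, 83.7, 101 and 106 CPM against 31.5, 30.6, 29.5 and 21.3 CPM, 1.74 ± 0.17). Gli3, a transcription factor of the Hedgehog pathway, was lower (1.62, 0, 10.5 and 4.81 CPM against 19.2, 26.1, 18.96 and 22.97 CPM and 48.96, 46.3, 50.03 and 42.98 CPM in astrocytes, -2.36 ± 0.41 and -3.50 ± 0.37). Against astrocytes 3 of the 10 were called lower and 1 higher, where 14.3% and 17.6% of all genes were. Besides Gli3, the lower ones were the Hedgehog receptor gene Ptch1 (-2.65 ± 0.17) and the factor Gli1 (-4.56 ± 0.39), both named after their values were seen. Arl3 (-0.19 ± 0.10) and Pkd1 (0.74 ± 0.20) were not called between ependymal cells and tanycytes.

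**Figure D5:**
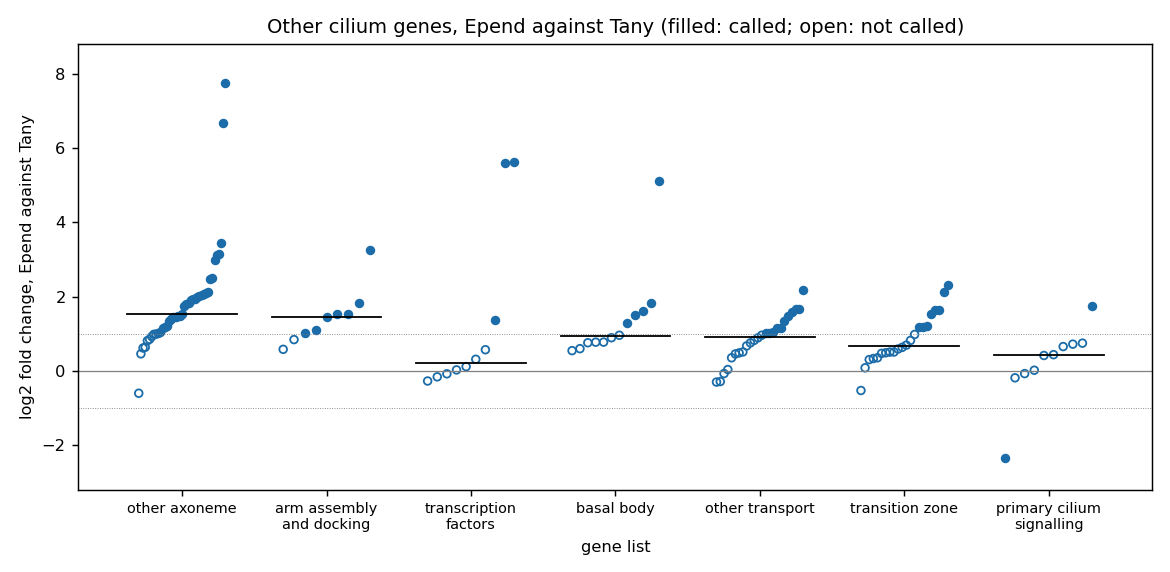
Log2 fold change between ependymal cells and tanycytes for each tested gene of the other cilium lists (filled, called; open, not called; black line, median; dotted lines, the limits at 1 and -1). Further axoneme genes have a median of 1.54 with 32 of 41 called, while of the primary cilium signalling genes 1 of 10 is called higher and 1 lower.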

How the data were processed

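Single-cell RNA-seq counts of whole hypothalamic cells were analysed for 4 of the 6 labelled R50E mice. The deposited counts were whole UMI numbers per gene and cell, which the authors gave without normalization, with a list of gene symbols and a cell table. Per the submitters' processing notes, Cell Ranger 1.2 and Seurat were used and the builds GRCm38, mm10 and GRCh38 are named. In the cell table the authors deposited UMI and gene counts, a mitochondrial percent (at most 20.0 in the cells kept), a doublet score as a fraction between 0 and 1, the library and the cell type label. Cells held at least 487 UMIs and 396 genes. The depth-corrected counts were not used, nor were 50172 cells of 12 other libraries in the table (12 of the 16), which match no labelled sample. Mice 12 and 37 were not analysed here. How doublets were removed by the authors is not given in the sources used here.

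Counts were summed per mouse and type (at least 20 cells each, so that VLMC were left out) and compared in R 4.3.3 by quasi-likelihood F tests of edgeR 4.0.16. The design had a block for the mouse, the scaling was TMM, low counts were filtered with filterByExpr, and p-values were adjusted by Benjamini-Hochberg over all tested genes. The cell types of a mouse come from the same library and animal, which is where the pairing comes from. Standard errors were taken from the F statistic. CPM were computed from the summed counts. Named genes were Foxj1, Ccdc153, Tmem212, Ccdc39 and Ccdc40, the 10 axonemal and 10 transport genes of highest ependymal level, the 5 highest axonemal genes not called over tanycytes, transport genes beyond a log2 fold change of 2, genes called lower in ependymal cells or called between tanycytes and astrocytes, the 4 of largest variation between mice, assembly and Spag genes of at least 50 CPM, and from each other list the 2 largest and 2 smallest differences with all transcription factors. A gene that this rule names is not reported here. The members and lists were chosen with earlier results of these data known.

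The test was checked on simulated counts with 200 changed genes. The simulated means held no effect of the mouse, and recovery was scored without the fold limit, so the shares are not those of calls. At an adjusted p below 0.05, 92% of 2-fold changes were recovered between ependymal cells and tanycytes (8551 genes simulated), 91% between ependymal cells and astrocytes (8082 genes) and 96% between tanycytes and astrocytes (9881 genes), all 4-fold changes were recovered (100%), and 5.42%, 7.28% and 4.39% of the genes past the limit were false. Sums held 346326 to 831384 UMIs in ependymal cells, and intervals cover counting error only. Alternatives were DESeq2 1.42.0 (size factors and Wald test), library totals, no filter, no block, thinned sums, 50 cells per mouse and type, the top 10% of doublet scores left out, other members of the lists and each mouse left out. Promoter windows are from RefSeq tables of GRCm38.p6, used by gene symbol.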

Additional observations from a re-analysis of the deposited data

Results flagged for a closer look

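Of 175 sets of 4 mouse values screened (levels of named genes and sums in a cell type), 4 had a highest or lowest mouse that stood apart by Dixon's criterion at the 95% level. About 5% of such sets pass this limit by chance, so 4 is fewer than chance alone gives. In astrocytes, Tmem212 was lowest in mouse 4 at 1.28 CPM, where the other mice lay between 4.00 and 4.08 CPM. In tanycytes, Ccdc39 was lowest in mouse 4 at 72.6 CPM (others 107 to 113 CPM). Ift74 was highest in tanycytes of mouse 3 at 97.8 CPM (others 83.2 to 84.0 CPM), and Cfap161 was lowest in tanycytes of mouse 30 at 41.1 CPM (others 49.9 to 50.4 CPM). No ependymal level was among them.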

How the results depend on the processing

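Of 210 recomputed summary values (17 in all, each under its alternatives), 169 stayed within a set limit and 41 moved. For counts the limit was a change of 1.5 times, and for medians and sums it was the SD over mice. Only the median log2 fold changes could reverse, and 0 did. Without the replicate block, 42 axonemal and 9 transport genes were called higher in ependymal cells than in tanycytes. Over astrocytes it was 50 and 15, and in tanycytes over astrocytes 36 and 9. The axonemal genes tested numbered 51, 51 and 44 in that order, and the transport genes 20 in each. Of all 8781, 8371 and 10081 genes tested, 1744, 2678 and 2118 were called in either direction. The block thus changed no summary call by over 1.5 times.

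With 50 cells per mouse and type few genes passed the filter. Of 953 genes tested between ependymal cells and tanycytes, 207 were called in either direction, 68.6% of them higher. Between ependymal cells and astrocytes it was 347 of 889 (48.1% of them higher), and between tanycytes and astrocytes 205 of 750. Of axonemal genes 8 of 11 tested were called over tanycytes and 8 of 8 over astrocytes. For transport genes these counts were 2 of 4 and 2 of 3. The axonemal median was 2.07 over tanycytes, the transport median 1.96 over astrocytes and the ependymal transport sum 2357 CPM. Between tanycytes and astrocytes no member was tested. Thinning the sums to 1 depth gave 1101 called genes of 5141 tested between ependymal cells and tanycytes. Between tanycytes and astrocytes it gave 1308 of 6365, of which 39.8% were higher in tanycytes. There 24 of 31 tested axonemal and 5 of 15 tested transport genes were called higher, with medians of 2.99 and 0.74. Over astrocytes the thinned ependymal medians were 4.90 and 1.93. Without the fold limit 17 of 20 tested transport genes were higher in ependymal cells than in tanycytes, and 17 of 20 in tanycytes than in astrocytes. Of all genes, 46.3% and 51.6% passed the p limit in either direction. Without the Cfap genes 22, 28 and 19 axonemal genes were called in the 3 comparisons in that order. These lower counts come from a shorter list. Of the 51, 51 and 44 axonemal genes tested, 23, 23 and 20 were Cfap genes, of which 20, 22 and 17 had been called higher. Over all genes, 13.1%, 17.6% and 10.1% were called higher. The ependymal sum without the Cfap genes was 4996 CPM. Without the Bbs genes the transport sum was 1939 CPM and its median over astrocytes 1.86. With Malat1, mt-Atp6 and mt-Co1 out of the total, the ependymal sums were 9570.5 and 2336 CPM. Over astrocytes, the axonemal median was 5.35 with library totals, 4.99 without the filter and 5.58 with the top doublet scores out, and the transport median 1.93 and 1.89 for the first and last of these. The axonemal median of tanycytes over astrocytes was 3.03 without the filter. The cause of these shifts was not tested beyond what each setting removes. Library totals also moved the median of all genes from -0.02 to 0.10 between ependymal cells and astrocytes, and the share of calls that were higher from 55.2% to 61.1%.

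Leaving out each mouse gave 42 to 43 axonemal genes called over tanycytes (51 to 52 tested, median 1.82 to 1.95). Of transport genes 7 to 9 were called (20 tested, 0.82 to 0.96). In these fits 1754 to 1920 of 8458 to 9039 tested genes were called in either direction. Over astrocytes the ranges were 48 to 51 (50 to 52 tested, 4.94 to 5.43) and 16 to 17 (20 tested, 1.81 to 1.92). There 2448 to 2976 of 7610 to 8915 genes were called in either direction. For tanycytes over astrocytes they were 30 to 40 (40 to 48 tested, 2.89 to 3.51) and 6 to 9 (19 to 20 tested, 0.85 to 0.99). There 1862 to 2429 of 8982 to 10842 genes were called in either direction. The ependymal sums ran from 8752 to 8976 CPM (axonemal) and from 2134 to 2200 CPM (transport).

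Of 1987 recomputed values of single members, 1942 kept direction and call, 19 gained a call, 19 lost one and 7 changed sign, and of 1023 values of other cilium genes 13 changed sign. None of the genes that changed sign had been called. Between ependymal cells and tanycytes these were Bbs5 at 0.067 (library totals), 0.073 (doublet scores) and -0.29 to 0.33 with each mouse left out, Bbs4 at 0.058 (library totals), 0.14 (thinned), 0.032 (doublet scores) and -0.11 to 0.091 with each mouse left out, Rfx3 at -0.0027 without the filter, -0.13 thinned, -0.026 (doublet scores) and -0.010 to 0.11 with each mouse left out (-0.0041 without mouse 34), Rfx7 at 0.0033 (library totals), Foxj3 at -0.25 (thinned) and -0.14 to 0.26 with each mouse left out, and Arl3 at 0.011 with 50 cells. With each mouse left out, E2f5 ran from -0.36 to 0.090 and Rpgrip1 from -0.13 to 0.24. Over astrocytes it was Ahi1, at -0.035 thinned and -0.088 to 0.21 with each mouse left out. Spag9 lost its lower call over astrocytes with library totals (-0.95) and without mouse 34 (-0.99). Depth limits what can be said of genes such as Dnah8, Tekt5 and Rsph3b, with under 10 ependymal UMIs.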
